A study of Rattus norvegicus with 24 samples.

Results

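The genes described here are 50 genes of mitosis and cell division, from the cyclins and kinases that start the cell cycle to the motors that split a dividing cell. They were chosen by gene symbol, and 43 of the 50 had a named probe on the array, out of 13337 genes named on it and 22523 probes in all. Top2a, Mki67, Cdk2, Birc5, Cenpe, Anln and Tk1 had no named probe and were not analysed here. Kif11 and Mcm5 had 2 probes each, and the probe with the higher mean signal was used. Several of the members, Bub1, Cdk1, Prc1, Tpx2, Nuf2 and Itgb3bp among them, had been picked out by the study from these same samples, so counts over the list are not independent evidence of its direction.

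RNA came from the basal left ventricle, outside the infarct, of adult female Sprague-Dawley rats of 3 months, taken 4 weeks after surgery. Sham rats had a suture tied loosely around the left coronary artery and a placebo pellet, MI rats had that artery ligated to cause a myocardial infarction and received the same placebo, and MI+T4 rats had the ligation and a pellet with 3.3 mg of thyroxine (T4) that released it over 60 days. Each group held 4 rats, and the RNA of each rat was hybridised to 2 Illumina RatRef-12 arrays that lay on different BeadChips, 24 arrays in all. The study dropped rats with the smallest and with the largest infarcts before choosing these, so the MI and MI+T4 groups hold neither extreme. Rats carry the numbers of the labels, 1 to 4 in Sham and 5 to 8 in both MI and MI+T4, and the shared numbers do not name the same animal.

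A cell that divides passes through an ordered programme. D- and E-type cyclins commit it to the cycle, helicases and polymerase clamps copy its DNA, and Cdk1 with the B-type cyclins then starts mitosis. Kinetochores tie the chromosomes to the spindle, a checkpoint holds the cell until all are attached, and the anaphase-promoting complex then releases it so that a central spindle and a contractile ring can part the daughters. Transcripts of many of these genes rise and fall with the cycle, so they mark dividing cells in a tissue. Adult cardiomyocytes rarely divide, whereas fibroblasts, endothelial cells and immune cells of the heart can.

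Signals are given as normalized log2 values, the mean of the 2 arrays of a rat, and levels are stated relative to the array median of 7.82. Most members lay close to the level of probes that carry little signal. Over the 12 rats, 38 of the 43 members had a mean within 1 log2 unit of the array median, 30 lay above it and 13 below. For scale, 62 probes of olfactory receptors, genes not typical of heart muscle, had a median 0.25 below the array median and a 95th percentile 0.10 above it. That percentile was exceeded by 26 of the 43 members, a share to be read against 43.6% of all probes. The members ran from Pcna, 4.33 above the array median, to Mad2l1, 0.37 below it. The scale flattens differences near background, so fold changes of the low members are understated.

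**Figure D1:**
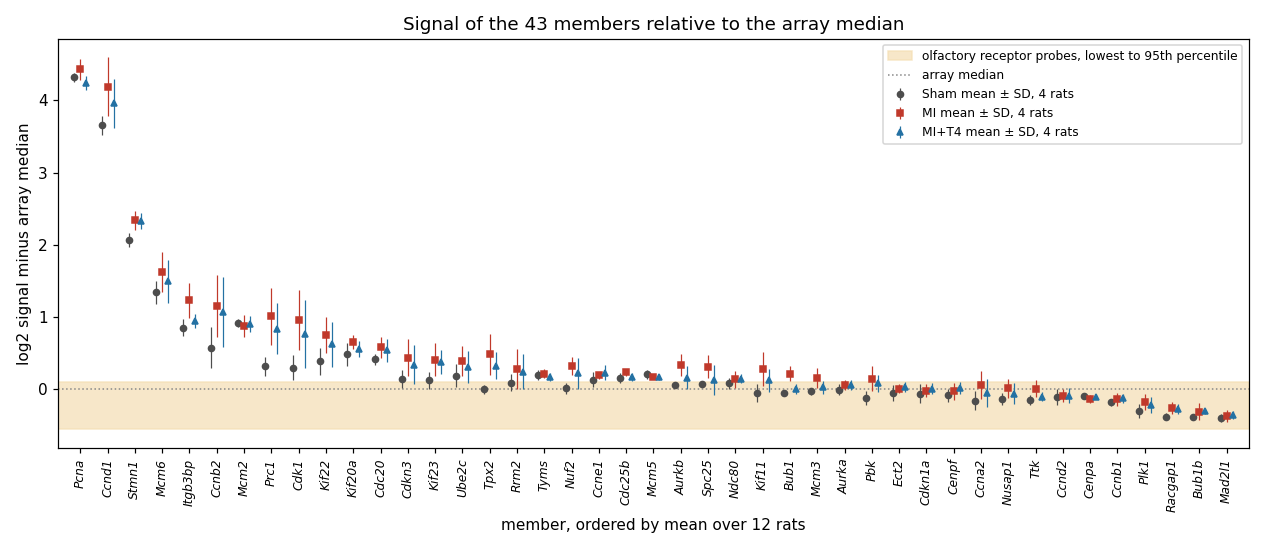
Normalized log2 signal minus the array median (vertical axis) of the 43 members, ordered by their mean over 12 rats, with the mean ± SD of 4 rats for each group. The shaded band runs from the lowest olfactory receptor probe to their 95th percentile, and 17 of the 43 members had an overall mean at or below its upper edge.

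The first comparison asked how members differed 4 weeks after infarction. In MI, 13 of 43 members (30.2%) were called higher than in Sham and 0 were called lower. A call means a Benjamini-Hochberg adjusted p under 0.05 over all 22523 probes in limma's fit of both arrays of every rat. Over all probes 1.89% were called higher and 1.72% lower. The means of 40 of the 43 members were higher in MI, and the median difference of the 43 was 0.17 on the log2 scale, beside -0.0044 over all probes. All 4 MI rats lay above all 4 Sham rats for 8 members (18.6%) and below them for 0, where the same held for 2.63% and 3.17% of all probes. With 4 rats against 4, an exact two-sided permutation test of a single gene cannot give a p below 0.0286. Full separation always gives that value, so it adds nothing to the count of 8, and it is not adjusted for the number of genes. In a tissue sample, more dividing cells and more transcript per cell cannot be told apart.

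These calls rest on the fit of single arrays, in which repeat arrays were given a common correlation of 0.243. For the 13 called members this correlation, with group means removed, had a higher median of 0.828. Their standard errors and p-values can therefore be too small. When the arrays of a rat were averaged first, limma called 0 of the 43 members and 0 of all probes, and the smallest adjusted p of a member was 0.162. At an unadjusted p under 0.05 it then had 18 members higher, against 26 with single arrays, and 2561 of all probes in either direction. Calls by a moderated F over the 3 groups, nearer to the study's own test, numbered 6. The count of 13 also moved with single rats, to 8 without Sham rat 1, 5 without Sham rat 2, 7 without Sham rat 4, 5 without MI rat 5, 4 without MI rat 8 and 21 without MI rat 7. Prc1, Tpx2, Bub1 and Itgb3bp were the members called in the fit whichever of the 12 rats was left out.

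**Figure D2:**
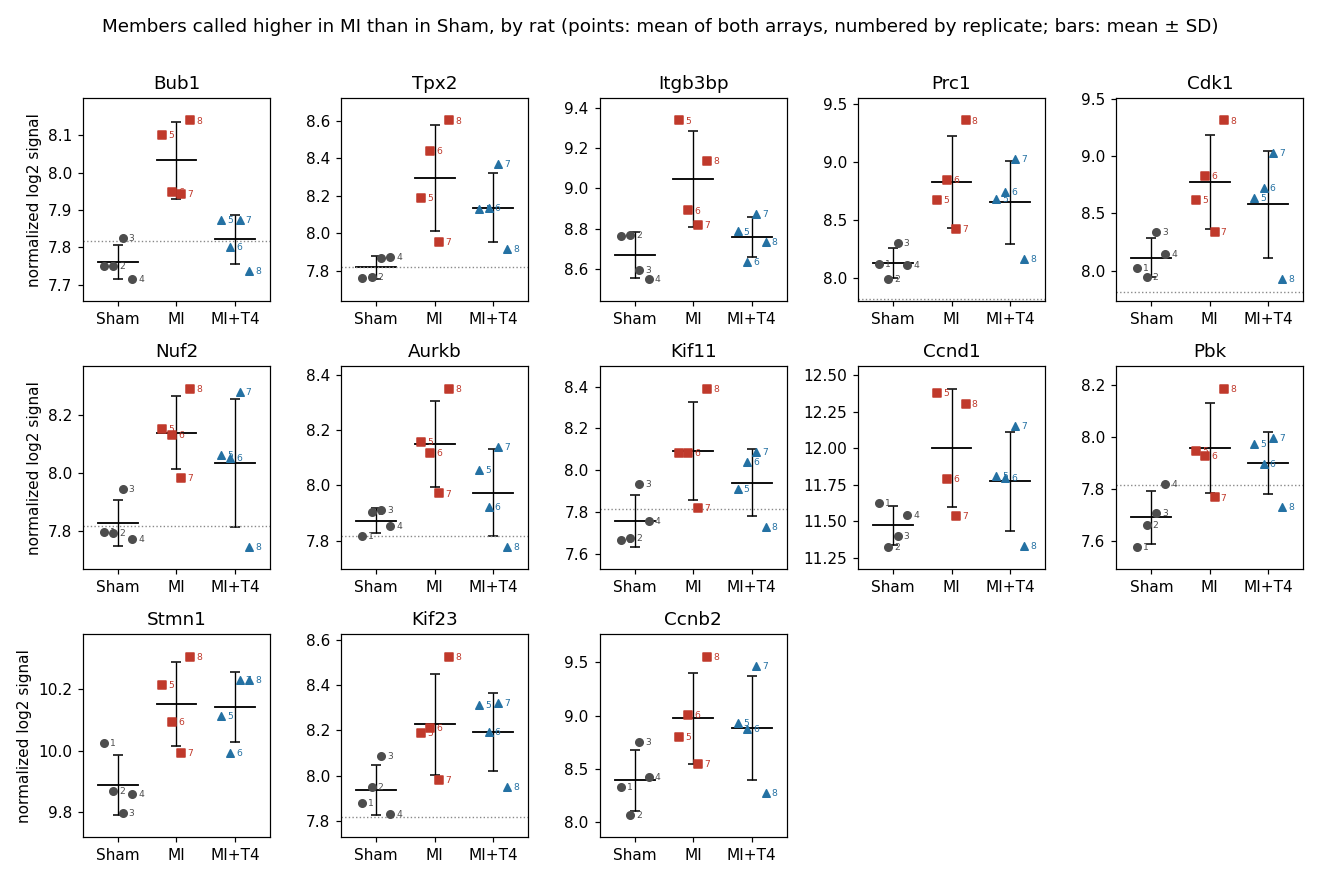
Normalized log2 signal (vertical axes, a separate range in each panel) of the 13 members called higher in MI than in Sham, with each point 1 rat (mean of 2 arrays, numbered as in the labels) and bars the mean ± SD of 4 rats. MI rat 7 is the lowest MI rat in all 13 panels, and MI+T4 rat 8 the lowest of its group in 11; the dotted line is the array median where it falls in range.

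Promoters of members called higher in MI are printed here because genes of this programme are known to share short promoter sequences. The cell cycle homology region, or CHR, is bound by the DREAM and MuvB complexes and is typical of genes transcribed late in the cycle, CCAAT boxes bind NF-Y, and E2F sites are typical of genes transcribed as DNA synthesis begins. Promoters from RefSeq on build GRCr8, 250 bases before to 50 bases after the start of the gene, matched 34 of the 43 measured members and 9 of the 13 called ones. For Cdkn3, listed with 2 starts, the first was used. Searched on both strands were TTTGAA and TTCGAA for the CHR, CCAAT, and TTTCCCGC, TTTCGCGC, TTTGCCGC and TTTGGCGC for E2F. Below, matches are in capitals, and a CCAAT box on the opposite strand reads ATTGG. Shown are the 4 called members with both a CHR and a CCAAT match, and the replication gene Mcm6 for its E2F letters.
Cdk1, chr20:19265043-19265342, plus strand: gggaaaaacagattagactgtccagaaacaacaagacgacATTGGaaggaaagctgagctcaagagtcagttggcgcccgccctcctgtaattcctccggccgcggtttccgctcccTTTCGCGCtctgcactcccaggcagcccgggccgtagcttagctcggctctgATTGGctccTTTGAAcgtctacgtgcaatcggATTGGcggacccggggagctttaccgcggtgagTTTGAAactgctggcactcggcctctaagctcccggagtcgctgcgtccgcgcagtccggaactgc
Ccnb2, chr8:79981609-79981908, minus strand: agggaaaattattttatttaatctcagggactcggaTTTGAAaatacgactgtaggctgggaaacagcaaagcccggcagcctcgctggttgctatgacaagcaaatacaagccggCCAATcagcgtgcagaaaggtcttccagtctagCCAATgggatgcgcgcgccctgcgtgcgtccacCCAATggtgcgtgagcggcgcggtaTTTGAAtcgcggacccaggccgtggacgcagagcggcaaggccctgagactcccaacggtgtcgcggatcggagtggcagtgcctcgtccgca
Prc1, chr1:143659231-143659530, plus strand: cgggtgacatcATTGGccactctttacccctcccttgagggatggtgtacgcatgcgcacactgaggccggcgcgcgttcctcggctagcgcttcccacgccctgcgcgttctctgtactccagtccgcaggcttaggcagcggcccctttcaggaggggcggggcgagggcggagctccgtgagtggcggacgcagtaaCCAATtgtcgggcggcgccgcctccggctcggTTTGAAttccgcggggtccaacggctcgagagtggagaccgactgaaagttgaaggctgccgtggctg
Kif23, chr8:71320535-71320834, minus strand: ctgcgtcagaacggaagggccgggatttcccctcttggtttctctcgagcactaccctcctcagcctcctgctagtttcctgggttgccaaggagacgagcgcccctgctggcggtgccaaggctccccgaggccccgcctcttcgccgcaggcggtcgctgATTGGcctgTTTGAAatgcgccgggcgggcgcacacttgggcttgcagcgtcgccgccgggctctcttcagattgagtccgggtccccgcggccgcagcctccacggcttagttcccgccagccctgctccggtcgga
Mcm6, chr13:42404303-42404602, minus strand: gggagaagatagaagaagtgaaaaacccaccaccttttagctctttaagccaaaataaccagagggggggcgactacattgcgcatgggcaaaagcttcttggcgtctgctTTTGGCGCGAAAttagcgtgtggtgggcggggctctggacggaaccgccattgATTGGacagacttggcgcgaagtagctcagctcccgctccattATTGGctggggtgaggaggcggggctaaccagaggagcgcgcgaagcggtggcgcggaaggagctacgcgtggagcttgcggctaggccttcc

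In Ccnb2 the 3 CCAAT boxes lay 33 bases apart, with a CHR 43 bases before the start, and in Cdk1 a pair of CCAAT boxes lay 32 bases apart with a CHR 16 bases before the start. The CHR of Prc1 began 18 bases and that of Kif23 79 bases before the start. In Mcm6 the 2 E2F matches overlapped and formed 1 run of capitals. Among the 34 members with a promoter, 58.8% held a CHR match, against 16.8% of the 10993 genes named on the array that had a promoter, and 70.6% against 37.7% held a CCAAT match. The shares were similar among the called members, with a CHR match in 5 of 9 (55.6%) and both a CHR and a CCAAT match in 44.4%, beside 44.1% of the 34. Called members without a CHR match were Bub1, Itgb3bp, Kif11 and Stmn1. E2F letters stood in 20.6% of member promoters and 3.14% of those of the array's genes. Over all 33469 promoters the shares were 19.7% for the CHR, 37.5% for CCAAT and 2.14% for E2F. Replication genes and the rest differed in these letters, with an E2F match in 5 of 6 replication promoters and in 2 of the 28 others, and a CHR match in 1 of 6 and in 19 of 28. A match is only a description of these letters and not a bound site.

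Of the members that act in G1 and S phase, Ccnd1, the cyclin D1 that links growth signals to the cycle, was the only one called of 4. Its signals were 11.62, 11.32, 11.40 and 11.54 in Sham rats 1 to 4, 12.38, 11.79, 11.54 and 12.30 in MI rats 5 to 8, and 11.81, 11.80, 12.16 and 11.33 in MI+T4 rats 5 to 8. MI rats 5 and 8 stood well above every Sham rat, whereas MI rat 7 lay inside the Sham range. The difference between MI and Sham was 0.53 ± 0.13 (SE, log2 scale, adjusted p = 0.0214, lost in 4 of the 12 exclusions of a single rat). Ccnd1 was 3.93 above the array median, and cyclin D1 is also expressed in cells that are not dividing. Ccnd2, another D-type cyclin and the lowest of this group, measured 7.63, 7.67, 7.67 and 7.88 in Sham, 7.79, 7.62, 7.68 and 7.82 in MI, and 7.88, 7.66, 7.71 and 7.66 in MI+T4, with groups that overlapped fully and a difference of 0.02 ± 0.06 between MI and Sham. Ccne1, the E-type cyclin, and Cdkn1a, the inhibitor p21, differed by 0.06 and 0.04.

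None of the 7 measured genes of DNA replication and nucleotide supply was called in either direction, and 5 of the 7 means were higher in MI. Pcna, the sliding clamp of DNA polymerase and the highest of all members, measured 12.05, 12.15, 12.15 and 12.19 in Sham, 12.29, 12.25, 12.05 and 12.39 in MI, and 12.05, 12.08, 12.16 and 11.94 in MI+T4. MI rat 7 was level with the lowest Sham rat, the other MI rats were above all Sham rats, and the difference was 0.11 ± 0.06 (adjusted p = 0.393). Mcm3, a subunit of the replicative helicase and the lowest of the group, lay just outside the threshold. It measured 7.72, 7.83, 7.81 and 7.80 in Sham, 8.02, 7.84, 7.86 and 8.15 in MI, and 7.80, 7.88, 7.94 and 7.74 in MI+T4. All 4 MI rats lay above all Sham rats by a narrow margin, and the difference was 0.18 ± 0.06 (adjusted p = 0.0882). Its helicase partners ran from -0.04 for Mcm2 and Mcm5 to 0.28 ± 0.11 for Mcm6. Rrm2, the regulated subunit of ribonucleotide reductase, differed by 0.19 ± 0.11 and Tyms, thymidylate synthase, by 0.02 ± 0.04.

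Among the 9 regulators of mitotic entry, 3 were called higher in MI and all 9 means were higher. Cdk1, the kinase that drives cells into mitosis, measured 8.02, 7.95, 8.34 and 8.15 in Sham, 8.62, 8.83, 8.34 and 9.31 in MI, and 8.64, 8.72, 9.03 and 7.93 in MI+T4. MI rat 8 was the highest of all 12 rats, MI rat 7 was level with Sham rat 3, and MI+T4 rat 8 was below every Sham rat. The MI difference of 0.66 ± 0.15 (adjusted p = 0.014) is 1.58-fold on this scale. The call was lost without MI rat 8 and without Sham rat 2. Ccnb2, a B-type cyclin that activates Cdk1, had the same shape, with 8.33, 8.07, 8.75 and 8.42 in Sham, 8.79, 9.003, 8.54 and 9.55 in MI, and 8.93, 8.87, 9.46 and 8.27 in MI+T4. It differed by 0.58 ± 0.17 but only just passed (adjusted p = 0.0495), and 8 of the 12 single-rat exclusions ended the call. Pbk, a kinase active in mitosis whose overall mean lay below the olfactory receptor limit, measured 7.58, 7.66, 7.71 and 7.82 in Sham, 7.95, 7.93, 7.77 and 8.19 in MI, and 7.97, 7.90, 8.00 and 7.73 in MI+T4. MI rat 7 was again the only MI rat inside the Sham range, and the difference was 0.27 ± 0.07 (adjusted p = 0.0257, lost in 5 of the 12 exclusions).

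The other regulators of entry were not called, although Cdkn3 differed by more than the called Pbk, with a larger SE. Cdkn3, a phosphatase that removes an activating phosphate from Cdk proteins, differed by 0.30 ± 0.10 (adjusted p = 0.101) and Ccna2, the A-type cyclin, by 0.22 ± 0.08. Plk1, the polo kinase of the entry step and the lowest of this group, measured 7.44, 7.43, 7.57 and 7.62 in Sham, 7.68, 7.54, 7.56 and 7.76 in MI, and 7.66, 7.59, 7.70 and 7.45 in MI+T4, groups that overlapped, at a difference of 0.12 ± 0.05. Cdc25b, Aurka and Ccnb1 differed by 0.08, 0.06 and 0.04. Cyclin B1 and cyclin B2 thus had unlike differences from Sham, although the difference between these genes was not tested and the Ccnb1 probe lay 0.15 below the array median.

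Of 6 genes of the spindle checkpoint and the anaphase-promoting complex, Bub1 alone was called, and all 6 means were higher in MI. Bub1, a checkpoint kinase at kinetochores, measured 7.75, 7.75, 7.82 and 7.72 in Sham, 8.10, 7.95, 7.94 and 8.14 in MI, and 7.87, 7.80, 7.87 and 7.74 in MI+T4. All MI rats were above all Sham rats and also above all MI+T4 rats, while MI+T4 and Sham overlapped. The MI difference of 0.27 ± 0.05 was small but had the lowest adjusted p of the list (0.00285), from a probe 0.05 above the array median. That level is below the olfactory receptor limit. With group means removed, the repeat arrays of Bub1 correlated at 0.373, beside the median of 0.828 for called members. Its SE therefore changed little when arrays were averaged first, from 0.050 to 0.052, and limma's adjusted p was then 0.162. Cdc20, which activates the anaphase-promoting complex and was the highest of this group, measured 8.12, 8.23, 8.26 and 8.31 in Sham, 8.32, 8.40, 8.27 and 8.60 in MI, and 8.39, 8.42, 8.48 and 8.12 in MI+T4. Only MI rat 7 fell inside the Sham range, at a difference of 0.17 ± 0.08 (adjusted p = 0.287). Mad2l1, a checkpoint inhibitor and the lowest of all members, measured 7.50, 7.39, 7.39 and 7.42 in Sham, 7.50, 7.43, 7.34 and 7.50 in MI, and 7.51, 7.39, 7.47 and 7.47 in MI+T4, which overlapped throughout, at a MI difference of 0.02 ± 0.05. Ube2c, Ttk and Bub1b differed by 0.20, 0.15 and 0.07.

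At the centromere and kinetochore, 3 of 7 members were called higher in MI and 4 of 7 had MI rats above all Sham rats. Itgb3bp, also known as CENP-R, belongs to the protein network that sits on centromeres. It measured 8.76, 8.77, 8.59 and 8.55 in Sham, 9.34, 8.89, 8.82 and 9.13 in MI, and 8.79, 8.64, 8.87 and 8.73 in MI+T4. Unlike most called members it was highest in MI rat 5, and the MI+T4 rats lay near the Sham rats, with a MI difference of 0.38 ± 0.07 (adjusted p = 0.00447). Nuf2, a subunit of the Ndc80 complex that grips microtubules, measured 7.80, 7.80, 7.95 and 7.77 in Sham, 8.15, 8.13, 7.98 and 8.29 in MI, and 8.06, 8.05, 8.28 and 7.75 in MI+T4. Sham rat 3 nearly reached MI rat 7, and the difference was 0.31 ± 0.07 (adjusted p = 0.0154). Aurkb, the kinase of the chromosomal passenger complex, measured 7.82, 7.90, 7.91 and 7.85 in Sham, 8.16, 8.12, 7.97 and 8.35 in MI, and 8.06, 7.92, 8.14 and 7.78 in MI+T4. Its groups were separate in MI and Sham, at 0.28 ± 0.07 (adjusted p = 0.0201). The calls of Nuf2 and of Aurkb were each lost in 4 of the 12 exclusions.

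Spc25, a partner of Nuf2 in the Ndc80 complex, lay just outside the threshold with 7.91, 7.92, 7.90 and 7.85 in Sham, 8.07, 8.21, 7.93 and 8.29 in MI, and 8.05, 7.98, 8.08 and 7.64 in MI+T4. All MI rats were above all Sham rats, MI rat 7 barely, and the difference was 0.23 ± 0.08 (adjusted p = 0.0914). Ndc80 itself, the name-giving subunit, differed by 0.05 ± 0.06. Cenpa, the histone variant that marks centromeres and the lowest of this group, measured 7.70, 7.73, 7.77 and 7.68 in Sham, 7.61, 7.73, 7.66 and 7.71 in MI, and 7.74, 7.70, 7.71 and 7.69 in MI+T4. Its groups overlapped, with a mean difference of -0.04 ± 0.04. With group means removed, its repeat arrays correlated at 0.01, and those of Mad2l1 at 0.0098. Rats of a group thus differed no more than repeat arrays did, which does not tell whether the probe had signal.

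Of 5 genes of the spindle and chromosomes, 3 were called higher in MI and all 5 means were higher. Tpx2, which brings Aurora A to spindle microtubules, measured 7.76, 7.76, 7.87 and 7.87 in Sham, 8.19, 8.44, 7.95 and 8.60 in MI, and 8.13, 8.13, 8.37 and 7.91 in MI+T4. Every MI rat and every MI+T4 rat was above every Sham rat, and the MI difference was 0.48 ± 0.09 (adjusted p = 0.00294). Kif11, the motor that pushes spindle poles apart, measured 7.67, 7.68, 7.94 and 7.76 in Sham, 8.08, 8.08, 7.82 and 8.39 in MI, and 7.91, 8.04, 8.09 and 7.73 in MI+T4. MI rat 7 was below Sham rat 3, and the difference was 0.33 ± 0.08 (adjusted p = 0.0207, lost in 5 of the 12 exclusions). A second Kif11 probe, 7.40 in mean and thus lower in signal, had a difference of -0.07 (adjusted p = 0.563), so the 2 probes disagreed. Stmn1 encodes stathmin, which destabilises microtubules, and was the highest of this group. It measured 10.03, 9.87, 9.80 and 9.86 in Sham, 10.21, 10.10, 9.99 and 10.31 in MI, and 10.11, 9.99, 10.23 and 10.23 in MI+T4. MI rat 7 was below Sham rat 1, MI and MI+T4 lay at a similar height, and the MI difference was 0.26 ± 0.07 (adjusted p = 0.0387, lost in 6 of the 12 exclusions).

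Kif22, a motor that binds chromosome arms and moves along microtubules, missed the threshold with 8.09, 8.01, 8.39 and 8.32 in Sham, 8.54, 8.55, 8.29 and 8.90 in MI, and 8.47, 8.49, 8.77 and 8.02 in MI+T4. MI rat 7 fell between Sham rats while the other 3 MI rats were above them, and the difference was 0.37 ± 0.11 (adjusted p = 0.0676). Nusap1, which bundles spindle microtubules and was the lowest of this group, measured 7.60, 7.63, 7.74 and 7.76 in Sham, 7.71, 7.87, 7.73 and 8.00 in MI, and 7.77, 7.85, 7.86 and 7.54 in MI+T4, with overlapping groups and a difference of 0.14 ± 0.06.

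In cytokinesis, 2 of 5 genes were called and all 5 means were higher in MI. Prc1 bundles the microtubules of the central spindle, and its difference was the largest of the 43 members. It measured 8.12, 7.99, 8.30 and 8.12 in Sham, 8.68, 8.85, 8.43 and 9.36 in MI, and 8.68, 8.74, 9.03 and 8.17 in MI+T4. Every MI rat was above every Sham rat, and of the MI+T4 rats only rat 8 fell in the Sham range. The MI difference was 0.70 ± 0.14 (adjusted p = 0.00498), or 1.62-fold on this scale. Kif23, the motor of the centralspindlin complex, measured 7.88, 7.95, 8.09 and 7.83 in Sham, 8.19, 8.21, 7.98 and 8.53 in MI, and 8.31, 8.19, 8.32 and 7.95 in MI+T4. MI rat 7 lay inside the Sham range, and the difference was 0.29 ± 0.08 (adjusted p = 0.0444, lost in 8 of the 12 exclusions). Racgap1, the partner of Kif23 in centralspindlin and the lowest of this group, measured 7.40, 7.43, 7.51 and 7.40 in Sham, 7.46, 7.57, 7.53 and 7.65 in MI, and 7.45, 7.61, 7.57 and 7.53 in MI+T4, close to background, at 0.12 ± 0.04 (adjusted p = 0.169). Kif20a and Ect2 differed by 0.17 and 0.06.

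**Figure D3:**
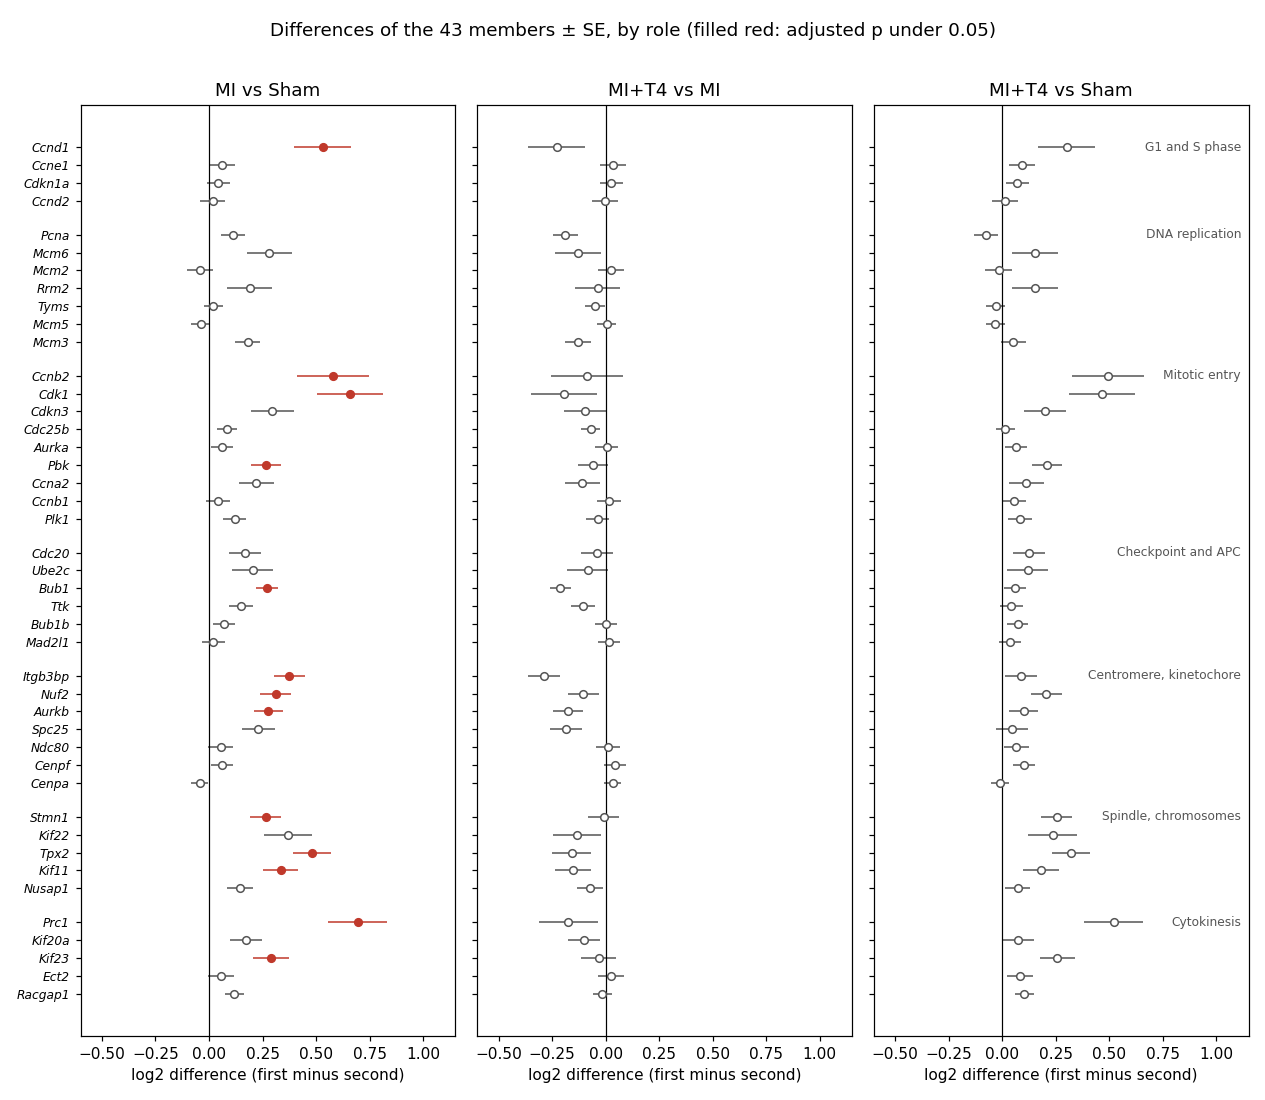
Log2 differences ± SE (horizontal axes) of the 43 members in the 3 comparisons, grouped by role and, within a role, ordered by mean signal. Filled red points are members called at an adjusted p under 0.05, of which there were 13 in MI against Sham and 0 in either comparison of MI+T4.

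The second comparison asked what T4 changed after infarction. With a moderated F on detected genes, the study reported genes raised and genes lowered by T4 against MI. In MI+T4 against MI, the fit used here called 0 of the 43 members and 0.0% of all probes. At an unadjusted p under 0.05, 6 members were lower and 0 higher, while 1670 of all probes passed in either direction. The means of 31 members were lower with T4 and those of 12 higher, and the median difference was -0.07 beside 0.0025 over all probes. All 4 MI+T4 rats lay below all 4 MI rats for 1 member, Bub1, and above them for 0, where 1.36% and 1.63% of all probes did so. MI samples entered both this and the first comparison, so the values are given side by side and not as a reversal. Each of the 13 members called in MI had a lower mean in MI+T4 than in MI, with a median of -0.16, beside a median of 0.33 between MI and Sham. These 13 were called on high values in the same MI rats. Lower means in MI+T4 can follow from that choice alone, so no effect of T4 is read from them.

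Bub1 came closest, at -0.21 ± 0.05 (adjusted p = 0.136), from 8.03 ± 0.10 (SD, n = 4) in MI to 7.82 ± 0.07 in MI+T4 and 7.76 ± 0.05 in Sham. Itgb3bp was next, at -0.29 ± 0.07 (adjusted p = 0.186), and its means of 9.04 ± 0.24, 8.76 ± 0.10 and 8.67 ± 0.11 in MI, MI+T4 and Sham kept the same order. From these same samples, the study had listed both Bub1 and Itgb3bp as raised by infarction and lowered by T4. Pcna followed, at -0.19 ± 0.06 (adjusted p = 0.31), with MI+T4 at 12.06 ± 0.09 and Sham at 12.13 ± 0.06. The 3 mitotic members with the largest MI differences had differences close to their SEs, of -0.17 ± 0.14 for Prc1, -0.19 ± 0.15 for Cdk1 and -0.09 ± 0.17 for Ccnb2. Stmn1 had the smallest difference of the called members, -0.01 ± 0.07. Without MI rat 7, the count of called members became 3, which were Bub1, Itgb3bp and Pcna, all lower. The median turned to 0.0055 without MI rat 8 and to 0.00050 without MI+T4 rat 8.

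The third comparison set MI+T4 against Sham, and 0 of 43 members were called, where 0.719% of all probes were called higher and 0.537% lower. At an unadjusted p under 0.05, 12 of the 43 were higher and 0 lower, while 2304 of all probes passed in either direction. The means of 38 of the 43 were higher, beside 48.7% of all probes, with a median of 0.09 beside -0.0019 over all probes. All 4 MI+T4 rats were above all Sham rats for 2 members, Tpx2 and Bub1b, and below them for 0, against 2.33% and 2.44% of all probes. Prc1, Tpx2 and Stmn1 were nearest to the threshold, at 0.52 ± 0.14 (adjusted p = 0.0552), 0.32 ± 0.09 (adjusted p = 0.075) and 0.25 ± 0.07 (adjusted p = 0.0915). Without MI+T4 rat 8 the count became 8, without MI rat 7 it became 2 and without MI rat 8 it became 3. MI rats are in neither of the groups compared here, but the fit pools the spread of all groups.

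The rats of a group differed from each other in most members at once. MI rat 8 was the highest MI rat for 35 of the 43 members and the highest of all 12 rats for 33, a place it took for 7.3% of all probes. MI rat 7 was the lowest MI rat for 33 members, including all 13 called ones. In MI+T4, rat 7 was the highest for 33 members and rat 8 the lowest for 31. Over all probes, these 4 places within a group were taken by the same rats for 21.5%, 24.7%, 25.3% and 25.9%. As the median over the 13 called members, the difference from the Sham mean was 0.34, 0.30, 0.14 and 0.59 in MI rats 5 to 8 and 0.28, 0.26, 0.38 and -0.02 in MI+T4 rats 5 to 8. The called members were chosen on the MI values, so their MI medians are a description only. Over the 30 members that were not called, the same medians were 0.09, 0.09, -0.0016 and 0.22 in MI and 0.09, 0.07, 0.13 and -0.04 in MI+T4, which keeps rat 8 as the highest MI rat and rat 8 as the lowest MI+T4 rat.

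**Figure D4:**
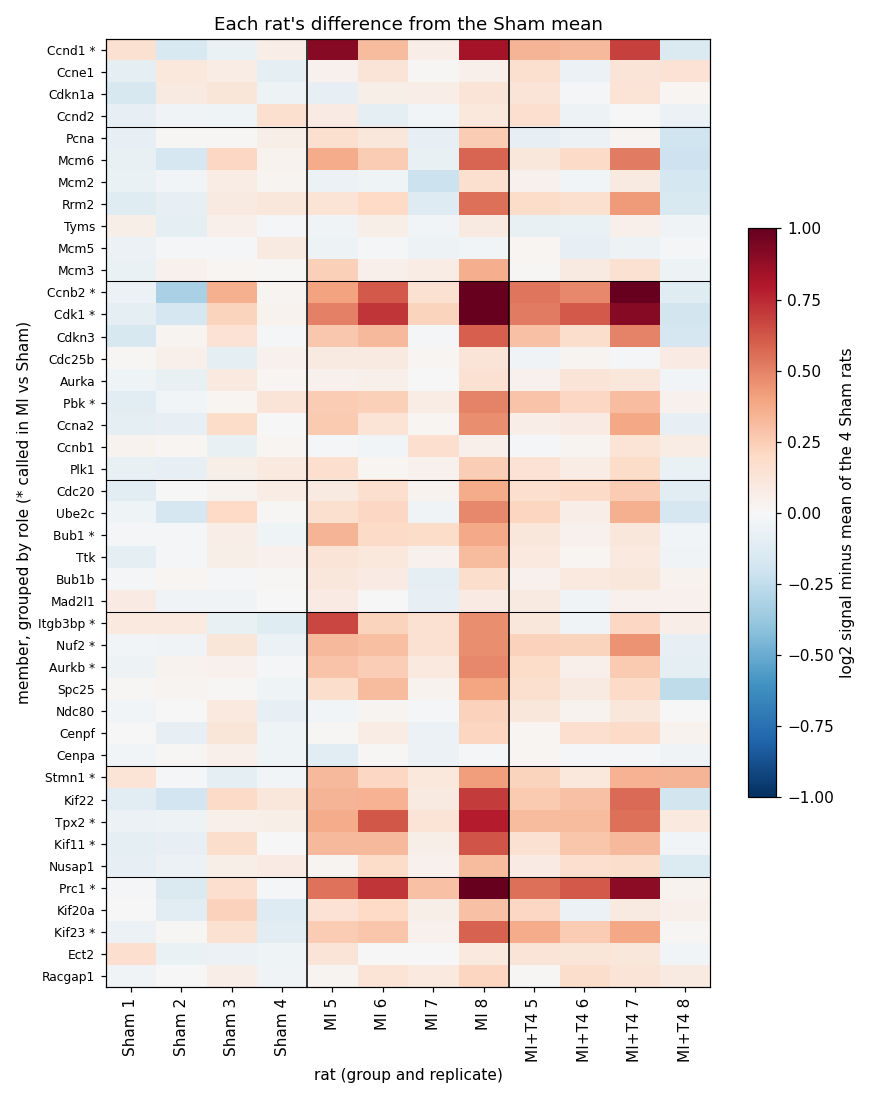
Log2 signal of each rat minus the mean of the 4 Sham rats (colour, from -1 in blue to 1 in red) for the 43 members in rows, grouped by role, and the 12 rats in columns. MI rat 8 had the highest median over the members, 0.36. MI+T4 rat 7, at 0.18, was close to MI rats 5 and 6, at 0.16 and 0.17, while MI+T4 rat 8, at -0.03, was near or below the Sham mean.

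Once group means were removed, members varied together from rat to rat. Over 12 rats, the median Pearson correlation was 0.53 over the 903 pairs of members and 0.78 over the 78 pairs of called members, given as a description because all values of a rat share the same RNA and arrays. Members most like Cdk1 by this measure were Prc1 at 0.99, Kif22 and Ccnb2 at 0.97 and Rrm2 at 0.96. Mcm2, at -0.04 ± 0.06 between MI and Sham, still followed Cdk1 from rat to rat at 0.94. Repeat arrays of a rat differed by a median of 0.07 over the members, and all 24 arrays correlated best with the other array of their own rat.

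Markers of other cells were read in the same rats, and not all of them moved with the members. Of 12 fibroblast markers, 4 were called higher in MI and 0 lower, namely Pi16 at 1.11, Cd248 at 0.90, Col3a1 at 0.95 and Pdgfra at 0.33. Between MI+T4 and Sham, 3 of the 12 were called higher, Pi16 at 0.69, Cd248 at 0.58 and Pdgfra at 0.34, where 0 of the 43 members were. None (0 of the 12) was called between MI+T4 and MI. The study had picked out Pi16, Cd248 and Pdgfra from these samples as well. The median of the 12 markers, as the difference from the Sham mean, was 1.12, 0.22, -0.05 and 1.06 in MI rats 5 to 8 and 0.29, 0.04, 0.78 and -0.17 in MI+T4 rats 5 to 8. The log2 of their summed signal ran from 15.97 to 16.48 in Sham, 16.11 to 17.29 in MI and 15.96 to 16.85 in MI+T4. MI rat 8 and MI+T4 rat 7 were thus high, and MI rat 7 and MI+T4 rat 8 low, in both fibroblast markers and members, although MI rat 5 led in fibroblast markers and not in members. The part of fibroblast content in the members' differences was not tested.

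Of 7 macrophage markers 0 were called. Their medians were 0.28, 0.26, 0.19 and 0.50 in MI rats 5 to 8 and 0.51, 0.10, 0.57 and -0.11 in MI+T4 rats 5 to 8. As in the members, MI rat 8 and MI+T4 rat 7 were highest and MI rat 7 and MI+T4 rat 8 lowest, so this order was not particular to fibroblast markers. Summed macrophage signals were 12.27 to 13.08 in Sham, 12.92 to 13.55 in MI and 12.55 to 13.56 in MI+T4. Of 5 red cell markers 1 was called, Hbb, also picked out by the study, at 0.57 between MI and Sham and 0.51 between MI+T4 and Sham, and their summed signals ran from 14.27 to 14.67 in Sham, 14.72 to 15.49 in MI and 14.74 to 15.22 in MI+T4. The red cell medians were 0.11, 0.17, 0.12 and 0.28 in MI rats 5 to 8 and 0.18, 0.16, 0.07 and 0.03 in MI+T4 rats 5 to 8. Endothelial, mural, lymphocyte, neutrophil and mast cell markers gave 0 calls, and endothelial sums were 14.06 to 14.21 in Sham and 14.18 to 14.28 in MI. Endothelial medians were 0.05, -0.01, 0.06 and 0.06 in MI rats 5 to 8. In MI+T4 rats 5 to 8 they were 0.10, 0.14, -0.05 and 0.10, lowest in rat 7. The tissue itself bore its label, with 9 of 9 cardiomyocyte markers above the olfactory receptor limit at a median of 8.10 above the array median, and 0 of 9 called in any comparison. The part of these cells in the members' differences was not tested.

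Genes of the same programme outside the list were read from 4 further lists. Of 41 other mitosis genes with a probe, 4 were called higher and 0 lower in MI, with a median difference of 0.07. They were Aspm, a spindle pole protein (0.40, adjusted p = 0.00228), Kifc1, a spindle motor (0.37, adjusted p = 0.0164), Arhgap11a (0.39, adjusted p = 0.0205), and Cenpt, a centromere protein (0.20, adjusted p = 0.034). Of these 41 genes, 14 lay above the olfactory receptor limit. The called Aspm, 0.096 above the array median, and Cenpt, 0.30 below it, did not. Of 43 other replication genes 0 were called higher and 1 lower, Rnaseh2a, a subunit of an enzyme that removes RNA from DNA (-0.32, adjusted p = 0.00525). Of 28 other cyclins, kinases and inhibitors, Cks2, a small subunit that binds Cdk proteins, was higher in MI (0.63, adjusted p = 0.012) and Tob1, an antiproliferative factor, was lower (-0.27, adjusted p = 0.022). None of 13 transcription factors of the cell cycle (0 of 13) was called in any comparison, at a median of -0.01 between MI and Sham. Over all probes, 1.89% were called higher and 1.72% lower in MI, so a single call in a list of this size is not read as a result of that list. Aspm, Rnaseh2a and Tob1 had also been picked out by the study from these samples. The other calls come from the same rats and the same fit, so none of the calls is an independent addition.

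In MI+T4 against MI, 0 genes of these 4 lists were called. In MI+T4 against Sham, Aspm was higher (0.31, adjusted p = 0.024), and Tob1 (-0.28, adjusted p = 0.0352) and Ccnh, the cyclin of the kinase that activates Cdk proteins (-0.31, adjusted p = 0.0335), were lower. Of all probes, 0.719% were called higher and 0.537% lower there, and these few calls are given as a description of single genes.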

How the data were processed

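RNA of 12 rats was measured on 24 Illumina RatRef-12 arrays. The authors applied a variance-stabilizing transformation similar to log2, which uses the repeat beads of each probe, and then robust spline normalization, and deposited the resulting log2 values (array medians 7.81 to 7.82). A second table holds 48 columns of signals and detection p-values named by BeadChip position, which no label ties to a sample, and was not used. Of 22523 probes, 13793 had 1 gene symbol in the platform annotation and 8730 had none.

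The fit kept the correlation between repeat arrays that the methods used: limma 3.58.1 in R 4.3.3 on both arrays of every rat, 3 group means, the rat as a block (duplicateCorrelation, statmod 1.5.0), eBayes, and Benjamini-Hochberg over all probes of a comparison at 5% FDR. It departed from the methods in that the study dropped undetected genes and called genes by a moderated F over the groups, whereas here every probe was tested in each comparison. The scripts were tested on simulated data. SEs come from this fit, and SDs and overlaps are over 4 rats. The number of rats limits precision. The members and all lists were chosen with earlier results of these data known. Values of every rat are given for called members, members with an adjusted p from 0.05 to 0.1 in MI against Sham, the highest and lowest of each role and the 3 nearest to the threshold in each T4 comparison. Alternatives were rat means, other priors, blocks, normalization, probe choice, a filter on low values, F-based calls and leaving out rats.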

Additional observations from a re-analysis of the deposited data

Results flagged for a closer look

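Within a group of 4 rats, a single rat stood far from the other 3 in 6 of the 129 member and group combinations, where chance alone gives about 1 in 20. Ccnb1 was low in Sham rat 3 (7.55, the others 7.65 to 7.67), and Ccnd2 was high in Sham rat 4 (7.88, the others 7.63 to 7.67). Ccne1 was low in MI+T4 rat 6 (7.89, the others 8.08 to 8.11). Ect2 was high in Sham rat 1 (7.93, the others 7.70 to 7.72) and low in MI+T4 rat 8 (7.74, the others 7.88 to 7.89). Nuf2 was high in Sham rat 3 (7.95, the others 7.77 to 7.80), and it was the one called member in this set. None of the 6 came from the MI group, and 5 of the 6 were members that were not called, beside 30 of all 43. As the count is near 1 in 20, no pattern is read from these splits.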

How the results depend on the processing

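The number of members called higher in MI than in Sham, 13, was 0 with rat means and with the arrays of technical replicate 1 or technical replicate 2 alone, 6 with nested F and 6 with the moderated F nearest to the methods, and 0 without MI rats 5 and 8 and MI+T4 rat 7 together. Leaving out each rat in turn gave 4 to 21. Other priors, the BeadChip as a block, only the compared groups, quantile normalization, the filter on low values and the mean over all probes of a gene gave 10 to 13. Without any rat or under any of these settings no member was called lower. The median difference of 0.17 became 0.27 under the filter, which kept 29 members, and 0.10 to 0.21 without single rats.

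In MI+T4 against MI, 0 calls became 2 lower with nested F, 2 lower with the moderated F and 0 to 3 without single rats, and the median ran from -0.12 to 0.0055. In MI+T4 against Sham, 0 became 4 with only the compared groups, 2 with nested F, 4 with the moderated F and 0 to 8 without single rats, with medians of 0.05 to 0.13.

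Alternatives for the overlap of rats were chosen after seeing the data. Members with separate groups numbered 8 to 24, 1 to 5 and 2 to 16 in the 3 comparisons without single rats. For MI+T4 against MI the number was 3 without MI rats 5 and 8 and MI+T4 rat 7 together. For MI+T4 against Sham it was 1 and 0 with technical replicate 1 and technical replicate 2 alone.

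With the replicate number of MI and MI+T4 as a replicate block, 0 members were called in MI+T4 against MI and the median was -0.07. Deviations of same-numbered rats correlated at 0.11, 0.25, -0.53 and -0.48 over probes. Deviations from a group mean are tied to each other, so these values cannot settle whether the numbers pair the rats. Of 531 recalculated values of named members, 378 kept their side of the threshold, 123 lost it and 30 gained it, and none changed sign. The causes were not tested. The weakest members are limited by their signal, since 17 of 43 lay at or below the olfactory receptor limit.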
